A study of Mus musculus with 12 samples.

Results

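The Trim genes of mouse macrophages are described here before and after priming with monophosphoryl lipid A (MPLA), a detoxified form of the lipid A of bacterial lipopolysaccharide. Members were all protein-coding genes whose symbol starts with Trim and a number, and 60 were found among 24351 genes (16220 of them protein coding), 55 of them in all 3 comparison tables. The table for 4 h listed 57 members, that for 24 h 57 and that for 3 d 58, and 49, 48 and 46 of them had an adjusted p-value. RNA-seq was done on 3 libraries in each of 4 groups, from bone marrow-derived macrophages after 4 h of MPLA, after 24 h of MPLA, 3 d after the end of priming, and from controls that received no MPLA. All cells came from wild-type C57BL/6 males aged 8 to 16 weeks and were grown for 7 d in 10% serum with the growth factor M-CSF at 10 ng/mL. M-CSF stayed in the medium of all groups throughout. How long the 3 d group was primed, when its controls were taken, and whether libraries of a group came from separate mice the sources used here do not state. The p-values measure a spread between libraries that may be technical.

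TRIM proteins are ubiquitin ligases built from a RING finger, B-box zinc fingers and a coiled coil, followed by a tail that differs between members and picks the target. Many with a SPRY tail act in antiviral defence, either by binding viral particles or by attaching ubiquitin to nucleic acid sensors and their adaptors, and a number of them are induced by interferon. Other tails bind chromatin (PHD finger and bromodomain), RNA or cytoskeletal proteins (NHL repeats) or microtubules (COS box).

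No value per library was used here, but the unscaled ratios of the authors' deposited tables were written with enough digits to hold the summed reads of each group as whole numbers. The sums came to 63251513 reads at 4 h, 68817315 at 24 h and 171090264 at 3 d, against 73826065 in the controls. For 16349 of 16349 genes with reads in every group, the control numbers read from the 3 tables could be joined into a common control sum. That sum was at most 50 times the largest of these numbers, so the numbers themselves need not be equal. For some genes the recovered number may be the sum divided by a whole number that all groups share. That leaves the ratios as they are but makes reads, RPKM and CPM of such a gene too low. Below, scaled reads are such sums brought to the depth of the controls with the authors' DESeq2 scaling, and RPKM is recovered reads scaled to exon length and to the group's total. Neither carries an error of its own, and errors after ± are standard errors of the log2 fold change implied by the authors' deposited p-values. Macrophage genes were high, with Csf1r at 189 RPKM at 4 h, 189 at 24 h and 460.5 at 3 d, against 725 RPKM in the controls. Adgre1 stood at 826, 2259 and 1395 RPKM, against 679 RPKM in the controls. Of 29 defining genes of neutrophils, lymphocytes, dendritic cells, fibroblasts, erythroid and mast cells, 19 were listed and 13 had recovered reads. The highest of these 13 was Xcr1 at 0.600 RPKM at 4 h, against 0.0730 RPKM in the controls. The other 6 were listed at 0 in the controls, so their level is not known, and 2 of them were called higher in the authors' deposited tables. The fibroblast gene Dcn stood at log2 3.65 at 4 h, 6.86 at 24 h and 4.70 at 3 d (DESeq2 adjusted p = 0.0267, 1.33e-12 and 4.34e-28) in those tables, fitted values that are no bound. Pdgfra, also of fibroblasts, was called higher at 4 h (4.34, DESeq2 adjusted p = 0.00501) in the authors' deposited table. In all, 4 of these markers were called higher and 0 lower at 4 h, 3 and 2 at 24 h, and 2 and 0 at 3 d in the authors' deposited tables, and their part in the members' results was not tested. In bulk RNA fewer cells with a transcript and less of it per cell cannot be told apart.

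Of 49 tested members, 18 were higher and 21 lower at 4 h than in the controls in the authors' deposited table (DESeq2 adjusted p under 0.05). Here and below, called and tested refer to DESeq2 unless edgeR is named. Among all 17523 genes tested at 4 h 62.9% were called there, 31.8% higher and 31% lower, so a called member is not unusual in itself. Members are all protein coding, and of the protein-coding genes 73.2% were called at 4 h, 73.7% at 24 h and 61.4% at 3 d, beside 79.6%, 70.8% and 69.6% of the members in the authors' deposited tables. At least 2-fold, 16 members were higher and 14 lower at 4 h, beside 18.1% and 18.5% of all genes in the authors' deposited table. At 24 h 21 of 48 members were higher and 13 lower in the authors' deposited table, beside 64.6% of all genes called (32.4% higher, 32.2% lower). At least 2-fold the members' counts were 12 and 6, beside 12.8% and 16.4% of all genes there. At 3 d 24 of 46 members were higher and 8 lower in the authors' deposited table, beside 55.2% of all genes called (29.5% higher, 25.8% lower). At least 2-fold the counts were 7 and 3, beside 6.38% and 5.2% of all genes there. The sizes of the changes were compared with other ubiquitin families as a description. The members' median absolute log2 fold change in the authors' deposited tables was 1.71 at 4 h, 0.84 at 24 h and 0.51 at 3 d. Over all tested genes of those tables it was 0.95, 0.68 and 0.31. At 4 h it was 0.73 over 70 tested Rnf genes, and 0.86 over 47 Usp genes, which encode deubiquitinases, in the authors' deposited table.

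Directions close to 0 rest on the scaling, and so do the sizes of all folds. At 4 h the median shift from the unscaled log2 ratio was 1.15 by DESeq2 and 0.22 by edgeR in the authors' deposited table. Folds and scaled reads in this report are by DESeq2, whereas RPKM and CPM use group totals. Ratios of RPKM at 4 h are therefore lower than the DESeq2 folds of the same gene. In the authors' deposited tables the log2 fold change of the median gene was -0.04 at 4 h, -0.05 at 24 h and -0.02 at 3 d by DESeq2, and -0.97, -0.46 and -0.15 by edgeR. The members' median in those tables was -0.11, 0.19 and 0.18 by DESeq2 and -1.05, -0.23 and 0.05 by edgeR. By edgeR the authors' deposited tables called 17 of 57 listed members higher and 29 lower at 4 h, beside 13.5% and 50.1% of all listed genes. At 24 h these counts were 18 and 26 of 57, beside 16.2% and 41.8%, and at 3 d 20 and 14 of 58, beside 15.5% and 27.7%. Among protein-coding genes tested by DESeq2, lower calls by edgeR were more common, at 9328 of 13611 at 4 h. At 24 h they were 7725 of 13148 and at 3 d 5462 of 12624. Members called by both tools in opposite directions in the authors' deposited tables were Trim35 and Trim44 at 4 h and Trim27, Trim28 and Trim44 at 24 h, and no member turned in this way at 3 d.

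**Figure D1:**
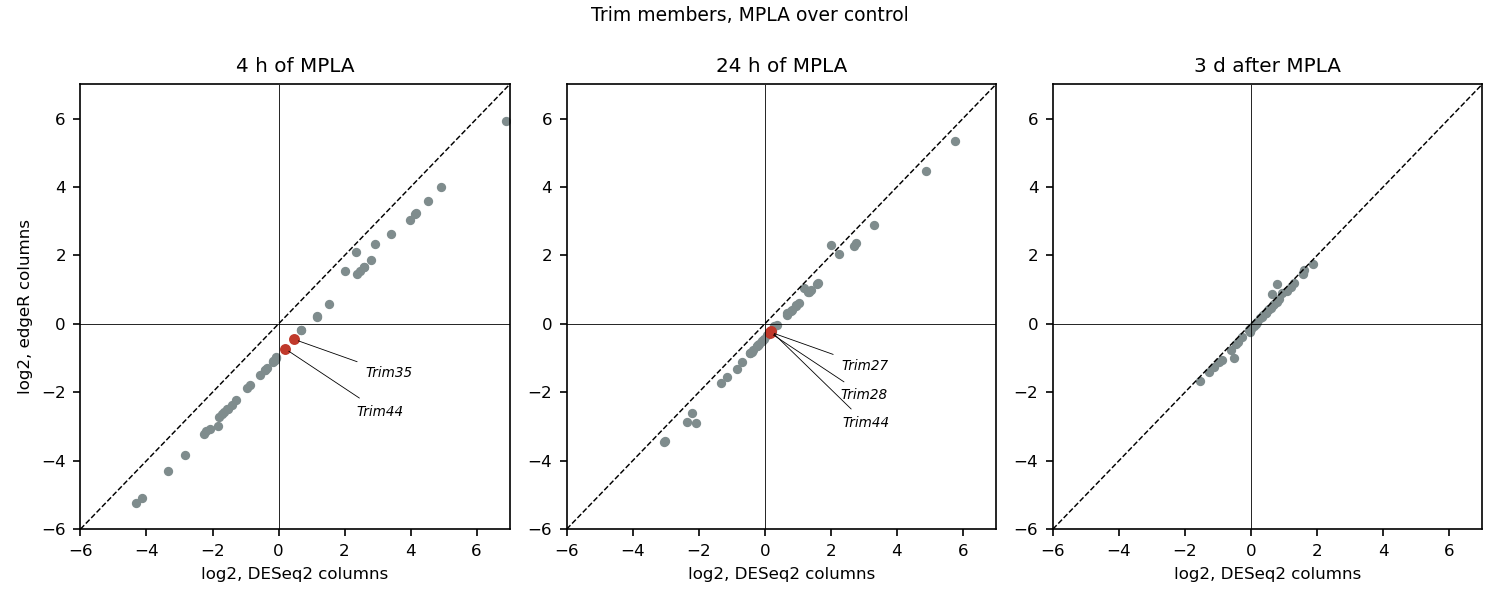
Log2 fold change of each tested Trim member, MPLA over control, by DESeq2 (x axis) and by edgeR (y axis) in the authors' deposited tables at 4 h, 24 h and 3 d, with the dashed line where both are equal. Points lie below the line at 4 h by about the shift of all genes, and the red points are the members called in opposite directions.

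**Figure D2:**
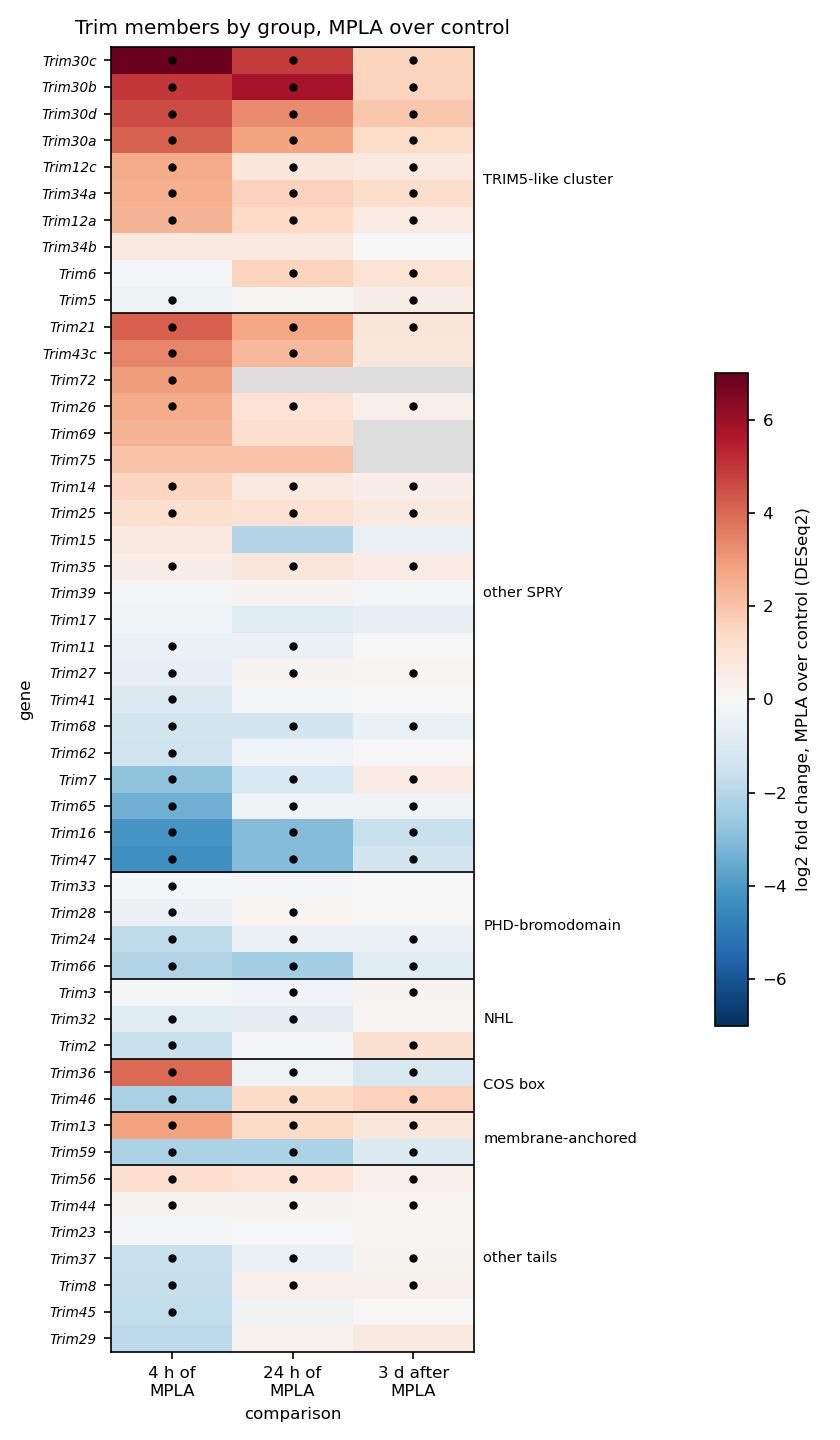
Log2 fold change of the tested Trim members, MPLA over control, by DESeq2 in the authors' deposited tables, in rows grouped by tail domain and in columns by time; a black dot marks an adjusted p under 0.05 and grey a member not tested. The chromosome 7 cluster at the top holds 7, 8 and 9 higher members at 4 h, 24 h and 3 d, and the PHD-bromodomain group holds 4 lower ones at 4 h. Among protein-coding genes tested, 36.9%, 37.7% and 33.7% were higher at these times and 36.3% were lower at 4 h.

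Reads on the family as a whole were more abundant in all 3 MPLA groups. The 53 members with recovered reads took 4259 CPM (recovered reads over the group's total, scaled to the same depth) at 4 h, 3265 at 24 h and 2469.9 at 3 d, against 1897 CPM in the controls. Genes of the chromosome 7 cluster made up 62.0% of these at 4 h, 45.6% at 24 h and 28.0% at 3 d, against 17.2% in the controls. Trim30a alone took 31.9%, 23.0% and 13.4%, against 7.68% in the controls. The 5 most read members at 4 h were Trim30a, Trim30d, Trim30c, Trim25 and Trim21, whereas in the controls they were Trim25, Trim35, Trim30a, Trim28 and Trim41. Per kilobase, Trim25 led in the controls at 59.7 RPKM, and Trim30a led at 4 h at 330.2 RPKM.

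**Figure D3:**
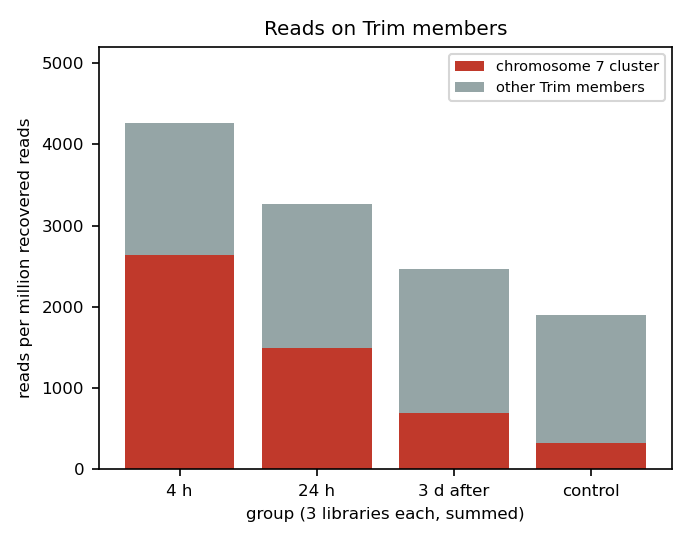
Reads in CPM on the 53 Trim members with recovered reads in the 4 h, 24 h, 3 d and control groups (3 libraries each, summed, no error available), split into the chromosome 7 cluster and all other members. The cluster's part is largest at 4 h and smallest in the controls, while the rest of the family differs less between groups.

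The largest increases lay in the TRIM5-like cluster of chromosome 7, where 10 Trim genes follow each other from Trim6 at 104218793 to Trim30d at 104507849 (GRCm38), in the order Trim6, Trim34a, Trim5, Trim12a, Trim34b, Trim12c, Trim30b, Trim30c, Trim30a and Trim30d. These are SPRY genes related to primate TRIM5, which binds incoming retroviral capsids, and the cluster has expanded in the mouse. Of the 10 genes, 7 were higher and 1 lower at 4 h, 8 and 0 at 24 h, and 9 and 0 at 3 d in the authors' deposited tables, with median log2 fold changes of 2.54, 1.60 and 1.08. With the edgeR columns of the authors' deposited tables the counts were 7 and 2, 8 and 1, and 9 and 0. Among protein-coding genes tested, DESeq2 called 36.9%, 37.7% and 33.7% higher at 4 h, 24 h and 3 d. By edgeR 2518 of 13611, 3115 of 13148 and 3269 of 12624 were called higher.

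Trim30c (chr7:104382065-104400837, minus strand) had 60249.5 scaled reads at 4 h, 15173 at 24 h and 1518 at 3 d, against 508 in the controls. It was 118-fold higher at 4 h by DESeq2, the highest fold of any called member, in the authors' deposited table, where its edgeR log2 change was 5.95. Its DESeq2 log2 changes were 6.88 at 4 h, 4.89 at 24 h and 1.58 ± 0.10 at 3 d in the authors' deposited tables. The DESeq2 adjusted p was stored as 0 at 4 h and 24 h and was 2.42e-52 at 3 d in the authors' deposited tables. Per kilobase Trim30c stood at 249, 90.2 and 11.0 RPKM at 4 h, 24 h and 3 d, against 4.01 RPKM in the controls, which placed it second in the family at 4 h and well down the order in the controls. Trim30b, its neighbour, had 4426 scaled reads at 4 h, 7913 at 24 h and 444 at 3 d, against 144 in the controls. Trim30b was the cluster gene that stood higher at 24 h than at 4 h among the Trim30 genes, with log2 changes of 4.93 ± 0.14 at 4 h, 5.76 at 24 h and 1.58 ± 0.18 at 3 d in the authors' deposited tables, although the difference between times was not tested.

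Trim30a, which in the mouse restrains Toll-like receptor signalling by promoting loss of the adaptors TAB2 and TAB3, was the most read member at 4 h and 24 h, and came after Trim25 at 3 d. It had 191045 scaled reads at 4 h, 73698 at 24 h and 26621 at 3 d, against 10751 in the controls. Its log2 changes were 4.14, 2.77 and 1.31 ± 0.05 in the authors' deposited tables, the last with a DESeq2 adjusted p of 3.77e-184. Its reported targets stood at 2.14 (Tab2) and 0.37 (Tab3) at 4 h by DESeq2 in the authors' deposited table, both called higher. By edgeR they stood at 1.20 and -0.57 in the same table, where Tab3 was called lower. Trim30d, which restricts a tick-borne flavivirus in mouse cells, had 65833 scaled reads at 4 h, 27814 at 24 h and 10362 at 3 d, against 2799 in the controls. At 3 d Trim30d stood at log2 1.89 ± 0.06 (DESeq2 adjusted p = 1.53e-236), the highest of the called members at that time in the authors' deposited table. Trim30a and Trim30d shared 5.98% and 7.49% of their 50-base windows with other transcripts, mainly each other's, and Trim30c and Trim30b 0.66% and 0.55%.

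The other cluster genes differed less from the controls. Trim12c had 25933 scaled reads at 4 h, 7541 at 24 h and 6701 at 3 d, against 4263 in the controls, with log2 changes of 2.60, 0.82 and 0.67 at 4 h, 24 h and 3 d in the authors' deposited tables. Trim34a stood at 2.47, 1.62 and 1.21 and Trim12a at 2.38, 1.42 and 0.60 at the same times in the authors' deposited tables, all called higher. Trim6, which makes unanchored ubiquitin chains for the kinase IKK epsilon, was not called at 4 h by DESeq2 (-0.06 ± 0.38, adjusted p = 0.897) and called lower by edgeR (-0.98) in the authors' deposited table. It was higher at 24 h (1.57 ± 0.25) and 3 d (0.95 ± 0.21) in those tables. Trim6 rested on few reads, 105 scaled reads at 4 h, 328 at 24 h and 220.1 at 3 d, against 108 in the controls. Trim5 fell slightly at 4 h (-0.36 ± 0.12, DESeq2 adjusted p = 0.00755) and rose at 3 d (0.45 ± 0.08) in the authors' deposited tables, and Trim34b, with 17 control reads, was called at no time. Values of Trim34a, Trim34b, Trim5, Trim12c and Trim12a are uncertain, since 39.8%, 56.8%, 36.3%, 33.0% and 10.4% of their 50-base windows also occur in transcripts of other genes. In addition 23.5% of the exonic bases of Trim34a lie under a gene on the opposite strand, and the sources used here do not state whether the counting used strand.

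**Figure D4:**
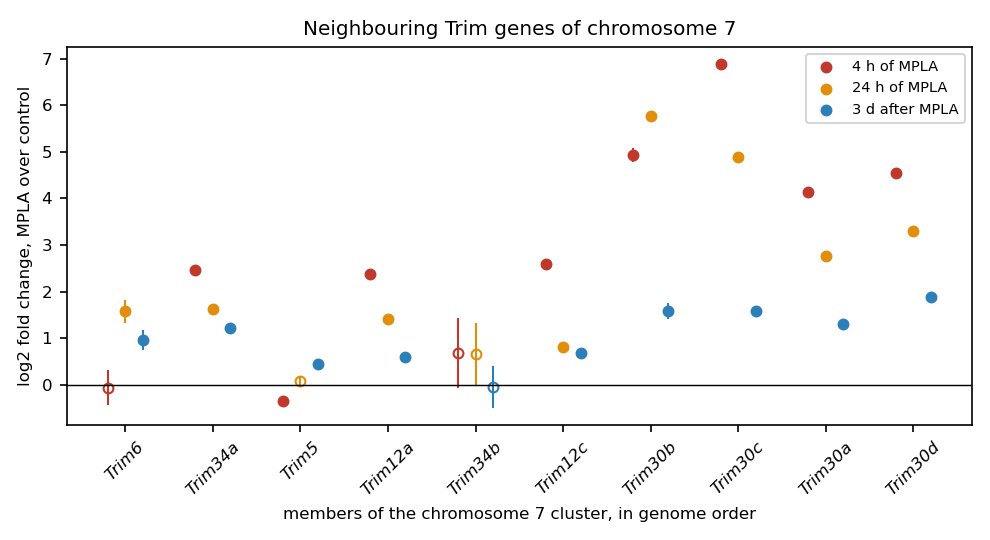
Log2 fold change, MPLA over control, of the 10 cluster members in their order on chromosome 7, by DESeq2 in the authors' deposited tables; bars are implied standard errors, drawn where the p-value was stored above 0, and open points were not called. The 4 Trim30 genes at the right stand highest at 4 h and 24 h, and Trim6, Trim5 and Trim34b are the members with an open or negative point.

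Promoter windows from RefSeq (GRCm38.p6; 250 bases before and 50 after an annotated start) were at hand for 46 of the 60 members. They were read for the interferon-stimulated response element on both strands. The form searched was GAAA, any 2 bases, and GAAA again, a sequence that interferon-activated factors bind. It occurred in a window of 9 of 46 members (19.6%), against 3.99% of 27025 genes. By the 4 h calls in the authors' deposited table it occurred in 7 of 14 higher members, 2 of 16 lower members and 0 of 16 others. These others take in members not tested or not listed at 4 h as well as tested ones not called. The share among all genes called higher or lower was not counted, so the split may not be particular to the members. The lower members with a match were Trim2 and Trim5, both of which were called higher at 3 d in the authors' deposited table, and at 3 d the match stood in 9 of 20 higher members and 0 of 5 lower ones. Trim34a, Trim5, Trim12a, Trim12c, Trim30a and Trim30d, all with a match, are related genes of the cluster. Trim5, Trim12a and Trim12c have nearly the same window sequence, as do Trim30a and Trim30d, so these counts hold copies that are not independent. The Trim2 match stood only in its window at chr3:84212789-84213088. The GAS motif TTCNNNGAA occurred in 13.0% of members, against 9.55% of all genes, and the NF-kappaB motif in 10.9%, against 9.55%. A match in a window is a description and shows no binding. Windows are printed below for Trim21, Trim26 and the 7 cluster members that rose at 4 h, 5′ to 3′ on the gene's strand with the element or its reverse complement in capitals. The windows of Trim30c and Trim30b, with the highest folds of the cluster at 4 h, hold no match. However, the Trim30b window lies inside the gene, which in GENCODE reaches to 104369884 on the minus strand. The sequence at that 5′ end of Trim30b was not read. Where the printed Trim30a window has TTTCTTTTTC, the related Trim30c window has ttcctttttc. The missing matches therefore do not set these promoters apart from those of their relatives.
Trim21, chr7:102565433-102565732, minus strand: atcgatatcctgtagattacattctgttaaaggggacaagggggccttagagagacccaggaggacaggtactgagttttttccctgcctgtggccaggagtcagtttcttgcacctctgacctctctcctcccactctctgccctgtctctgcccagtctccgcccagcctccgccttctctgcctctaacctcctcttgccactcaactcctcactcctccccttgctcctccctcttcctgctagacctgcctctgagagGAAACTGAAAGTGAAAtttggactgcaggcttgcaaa
Trim34a, chr7:104244207-104244506, plus strand: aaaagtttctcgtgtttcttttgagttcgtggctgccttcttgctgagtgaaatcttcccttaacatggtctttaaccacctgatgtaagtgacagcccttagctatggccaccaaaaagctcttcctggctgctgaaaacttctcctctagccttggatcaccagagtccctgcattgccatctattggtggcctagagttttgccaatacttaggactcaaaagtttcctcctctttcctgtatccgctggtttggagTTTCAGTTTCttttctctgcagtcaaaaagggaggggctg
Trim12a, chr7:104315446-104315745, minus strand: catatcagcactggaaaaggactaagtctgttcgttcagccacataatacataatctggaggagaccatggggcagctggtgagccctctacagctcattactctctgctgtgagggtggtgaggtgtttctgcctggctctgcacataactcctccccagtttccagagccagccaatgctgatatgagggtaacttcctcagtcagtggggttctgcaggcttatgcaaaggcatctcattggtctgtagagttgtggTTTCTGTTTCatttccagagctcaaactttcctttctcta
Trim12c, chr7:104353300-104353599, minus strand: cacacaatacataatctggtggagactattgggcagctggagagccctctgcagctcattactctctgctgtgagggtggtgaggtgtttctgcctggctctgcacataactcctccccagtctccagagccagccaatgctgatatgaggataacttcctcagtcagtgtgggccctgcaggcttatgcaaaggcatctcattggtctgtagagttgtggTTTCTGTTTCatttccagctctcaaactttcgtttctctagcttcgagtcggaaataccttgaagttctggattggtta
Trim30a, chr7:104465144-104465443, minus strand: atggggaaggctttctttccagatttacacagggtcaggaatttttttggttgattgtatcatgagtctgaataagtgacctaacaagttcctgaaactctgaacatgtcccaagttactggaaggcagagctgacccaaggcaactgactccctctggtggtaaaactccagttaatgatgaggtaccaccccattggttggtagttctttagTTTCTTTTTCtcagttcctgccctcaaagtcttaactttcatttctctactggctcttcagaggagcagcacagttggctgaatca
Trim30d, chr7:104507800-104508099, minus strand: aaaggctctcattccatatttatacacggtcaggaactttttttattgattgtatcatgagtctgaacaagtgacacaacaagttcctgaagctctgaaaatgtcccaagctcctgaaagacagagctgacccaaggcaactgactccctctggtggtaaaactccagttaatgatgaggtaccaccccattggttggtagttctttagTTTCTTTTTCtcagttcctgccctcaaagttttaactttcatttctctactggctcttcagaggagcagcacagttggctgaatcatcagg
Trim26, chr17:36836896-36837195, plus strand: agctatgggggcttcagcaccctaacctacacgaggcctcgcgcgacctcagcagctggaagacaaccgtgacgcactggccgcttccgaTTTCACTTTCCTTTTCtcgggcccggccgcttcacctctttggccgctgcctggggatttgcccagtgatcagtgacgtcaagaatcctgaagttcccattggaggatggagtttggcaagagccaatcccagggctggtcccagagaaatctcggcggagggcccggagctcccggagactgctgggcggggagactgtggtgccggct
Trim30c, chr7:104400729-104401028, minus strand: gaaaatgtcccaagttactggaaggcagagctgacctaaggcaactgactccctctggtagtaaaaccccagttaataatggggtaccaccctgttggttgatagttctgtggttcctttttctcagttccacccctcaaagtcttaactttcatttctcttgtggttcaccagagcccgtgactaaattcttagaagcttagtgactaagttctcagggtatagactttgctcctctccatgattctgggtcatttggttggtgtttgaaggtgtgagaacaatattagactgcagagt
Trim30b, chr7:104358597-104358896, minus strand: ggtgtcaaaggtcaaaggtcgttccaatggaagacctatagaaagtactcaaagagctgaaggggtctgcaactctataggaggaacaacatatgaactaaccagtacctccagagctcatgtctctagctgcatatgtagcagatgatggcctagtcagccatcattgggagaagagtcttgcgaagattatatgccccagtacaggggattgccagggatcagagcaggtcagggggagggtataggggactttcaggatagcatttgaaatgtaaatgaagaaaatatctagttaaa
The Trim21 window holds 2 overlapping copies at 13 to 22 and 19 to 28 bases after the annotated start, counting that start as 0. The Trim26 window also holds 2 overlapping copies, at positions -160 to -151 and -154 to -145 from its start. In the printed Trim30a and Trim30d windows the copy ended 27 and 32 bases before the start, with the same letters in both. Trim30a has a further annotated start whose window, chr7:104446076-104446375, is not printed. There the match lay 2 to 11 bases after the start.

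Trim21, a cytosolic receptor for antibody that sends antibody-coated viruses to the proteasome, rose to a similar degree as Trim30a. It lies outside the cluster (chr7:102557921-102565486, minus strand) and had 54326 scaled reads at 4 h, 19516 at 24 h and 5411 at 3 d, against 2994 in the controls. Its log2 change was 4.18 at 4 h, 2.70 at 24 h and 0.86 ± 0.05 at 3 d (DESeq2 adjusted p = 1.61e-63) in the authors' deposited tables. Trim26, a ligase tied to the control of interferon induction, stood at 2.59, 0.96 and 0.33 at 4 h, 24 h and 3 d in the authors' deposited tables and was called higher each time, from 4833 control reads. Trim14, which lacks a RING and serves as an adaptor of the mitochondrial signalling protein MAVS, stood at 1.52, 0.67 and 0.45 in the authors' deposited tables, also called higher each time. Of the exonic bases of Trim14, 38.0% lie under genes on the opposite strand, so its value is uncertain.

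Trim25, the ligase that attaches ubiquitin to the RNA sensor RIG-I, was the most abundant member per kilobase in the controls and changed moderately. It had 56662 scaled reads at 4 h, 51802 at 24 h and 41523 at 3 d, against 25364 in the controls. It was 2.22-fold, 2.03-fold and 1.63-fold higher in the authors' deposited tables, with log2 changes of 1.15 ± 0.04 at 4 h, 1.02 ± 0.04 at 24 h and 0.70 ± 0.04 at 3 d. With edgeR the 4 h change was 0.22 in the authors' deposited table, still called higher. Its target Ddx58, which encodes RIG-I, stood at 4.22, 3.24 and 1.98 and Rnf135, the other ligase of RIG-I, at 2.10, 1.53 and 0.54 at 4 h, 24 h and 3 d in the authors' deposited tables, all called higher. Trim56, a ligase of the cGAS and STING pathway, stood at 1.15, 0.94 and 0.38 in the authors' deposited tables and was called higher at all 3 times. Its size at 4 h rests on the scaling, with 4935 recovered reads, against 4943 in the controls. By edgeR the 4 h change of Trim56 was 0.22 in the authors' deposited table, still called higher.

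Trim13, anchored in the membrane of the endoplasmic reticulum, had 3193 scaled reads at 4 h, 1162 at 24 h and 772 at 3 d, against 454 in the controls. Its log2 changes of 2.82 ± 0.11 at 4 h, 1.35 ± 0.13 at 24 h and 0.78 ± 0.12 at 3 d were called higher in the authors' deposited tables, and 14.2% of its windows also occur in Gm9359. Trim35 was called higher at 24 h (0.80 ± 0.04) and 3 d (0.56 ± 0.04) in the authors' deposited tables, but at 4 h it was 0.48 ± 0.04 with DESeq2 and -0.46 with edgeR, called in both. Trim44, which lacks a RING and carries a ubiquitin-binding zinc finger, was 0.21 and -0.73 at 4 h and 0.20 and -0.22 at 24 h with DESeq2 and edgeR in the authors' deposited tables. A pair of members was called higher on a few reads only. Trim43c, of a family active in early mouse embryos, had 17 recovered reads at 4 h, 12 at 24 h and 15 at 3 d, against 3 in the controls. Its scaled ratio at 4 h was 12.6 (95% interval 3.65 to 67.2), and 42.1% of its windows occur in other Trim43 genes. Trim72, known for membrane repair in muscle, had 10 reads at 4 h, against 2 in the controls, a ratio of 11.1 (95% interval 2.37 to 104). These intervals are exact, cover counting error only and are wide.

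**Figure D5:**
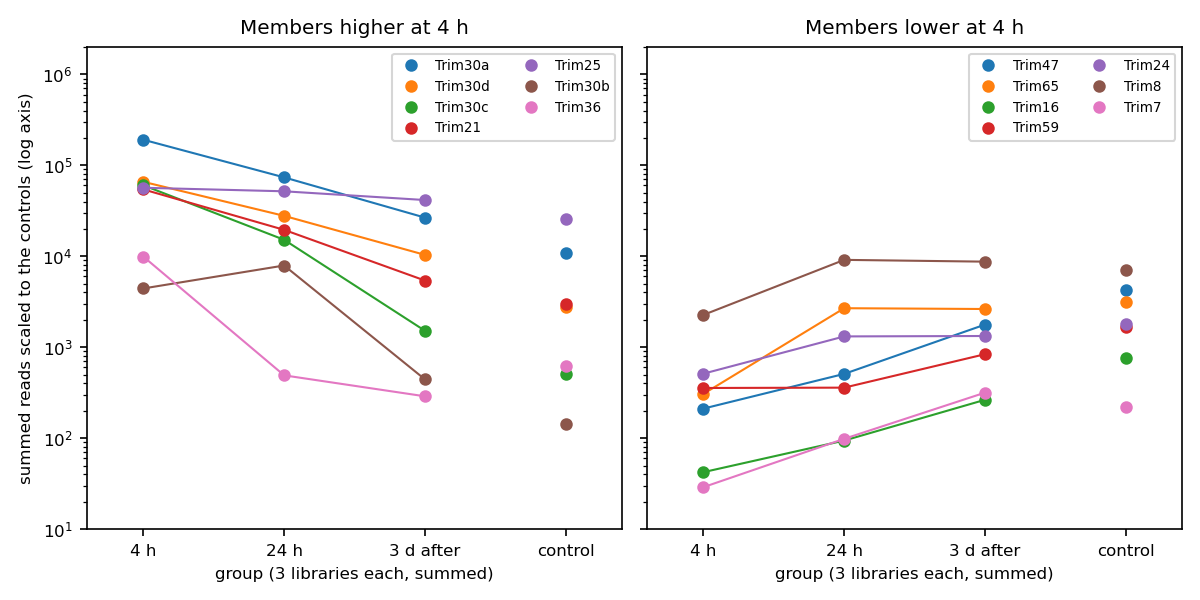
Scaled reads (log axis) of 7 members called higher at 4 h and 7 called lower at 4 h, in the 4 h, 24 h, 3 d and control groups (each point is 3 libraries summed, with no error available). Trim36 stands out on the left, high at 4 h and below the controls afterwards, and on the right the lower members lie closer to the controls at 3 d than at 4 h.

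Among members that fell, Trim47 and Trim16 differed most. Trim47, a SPRY ligase (chr11:116105752-116127210, minus strand), had 211 scaled reads at 4 h, 509 at 24 h and 1772 at 3 d, against 4211 in the controls. It was 19.8-fold lower at 4 h, 8.28-fold at 24 h and 2.40-fold at 3 d in the authors' deposited tables, with log2 changes of -4.31 ± 0.17 at 4 h, -3.05 ± 0.10 at 24 h and -1.26 ± 0.06 at 3 d. By edgeR its 4 h log2 change was -5.25 in the authors' deposited table. The DESeq2 adjusted p-values were 3.07e-148, 5.26e-201 and 6.74e-96 in the authors' deposited tables. In the controls Trim47 was the seventh member per kilobase, and it stood at 0.549, 1.90 and 8.03 RPKM at 4 h, 24 h and 3 d, against 20.9 RPKM in the controls. Trim16, which helps autophagy of damaged lysosomes, had 42.3 scaled reads at 4 h, 94.1 at 24 h and 264 at 3 d, against 762 in the controls. Its log2 changes were -4.14 ± 0.26 at 4 h, -3.01 ± 0.16 at 24 h and -1.54 ± 0.10 at 3 d in the authors' deposited tables, called lower each time. Both remained the 2 lowest called members at 3 d in those tables, at 2.92-fold lower for Trim16 and 2.40-fold lower for Trim47.

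Trim65, the ligase that attaches ubiquitin to the RNA sensor MDA5, was low at 4 h and near the controls later. It had 307 scaled reads at 4 h, 2684 at 24 h and 2630.4 at 3 d, against 3145 in the controls. Its log2 change was -3.35 ± 0.15 at 4 h (DESeq2 adjusted p = 9.79e-113), then -0.23 ± 0.07 at 24 h and -0.26 ± 0.06 at 3 d, all called lower in the authors' deposited tables. Its target Ifih1, which encodes MDA5, moved the other way, at 6.12, 3.38 and 1.60 at 4 h, 24 h and 3 d in the authors' deposited tables. Trim65 and Trim47 are neighbours on chromosome 11 and their exons overlap on the same strand, over 3.82% of the exonic bases of Trim65 and 8.23% of those of Trim47. Mavs, the adaptor of both RNA sensors, stood at -1.36 at 4 h (DESeq2 adjusted p = 1.36e-74) and at 0.02 and 0.07 later, not called by DESeq2, in the authors' deposited tables. By edgeR Mavs was called lower at 24 h (-0.39) in the authors' deposited table.

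Trim59, a membrane-anchored member linked to tumour growth, had 356 scaled reads at 4 h, 359 at 24 h and 837 at 3 d, against 1649 in the controls. It was called lower at each time, at -2.21, -2.20 and -0.96 in the authors' deposited tables. Trim68, a coactivator of the androgen receptor in human cells, stood at -1.28, -1.32 and -0.45 in the authors' deposited tables and was likewise called lower at all 3 times. Trim7, which binds glycogenin, the primer of glycogen synthesis, was lower at 4 h (-2.84 ± 0.47) and 24 h (-1.14 ± 0.28) and higher at 3 d (0.50 ± 0.17, DESeq2 adjusted p = 0.00566) in the authors' deposited tables. Trim7 had 28.9 scaled reads at 4 h, 98.3 at 24 h and 316 at 3 d, against 219 in the controls. Its 4 h value rests on 13 recovered reads, a scaled ratio of 0.132 (95% interval 0.0692 to 0.231).

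All 4 members with a PHD finger and bromodomain, which act as cofactors of transcription, fell at 4 h by both DESeq2 and edgeR in the authors' deposited table. Of 13611 protein-coding genes tested there, DESeq2 called 36.3% lower and edgeR called 9328 lower, so a lower call by edgeR is common. Trim24, a cofactor of nuclear receptors, had 512 scaled reads at 4 h, 1314 at 24 h and 1328 at 3 d, against 1777 in the controls. Its log2 changes were -1.79 ± 0.14 at 4 h, -0.43 ± 0.10 at 24 h and -0.39 ± 0.08 at 3 d in the authors' deposited tables. Trim66 fell at all 3 times in the authors' deposited tables (-2.08, -2.35 and -0.87), on only 81 control reads. Trim28, the corepressor of KRAB zinc finger proteins, was -0.41 ± 0.05 at 4 h in the authors' deposited table. At 3 d it was not called by DESeq2 and called lower by edgeR (-0.15) there. At 24 h it stood at 0.16 with DESeq2 and -0.26 with edgeR, called in opposite directions, in the authors' deposited table. Trim33, which regulates SMAD signalling, stood at -0.16 ± 0.07 at 4 h (DESeq2 adjusted p = 0.0383) in the authors' deposited table. Over the 4 genes 1 was higher and 2 lower at 24 h and 0 and 2 at 3 d with DESeq2, while edgeR called 0 higher and 4 lower at both times in the authors' deposited tables. Among protein-coding genes tested, DESeq2 called 36.0% lower at 24 h and 27.7% at 3 d. There edgeR called 7725 of 13148 lower at 24 h and 5462 of 12624 at 3 d.

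The pair of tested COS box members, which bind microtubules, ran opposite to each other. Trim36, known from sperm and cell division, had 9900.3 scaled reads at 4 h, 490.3 at 24 h and 288 at 3 d, against 625 in the controls. It was 15.8-fold higher at 4 h (log2 3.98, DESeq2 adjusted p stored as 0) in the authors' deposited table, where its edgeR log2 change was 3.05. Later it was lower, at -0.34 ± 0.15 at 24 h (DESeq2 adjusted p = 0.0354) and -1.10 ± 0.13 at 3 d (adjusted p = 4.38e-17) in the authors' deposited tables. Of all members, Trim36 alone was called higher at 4 h and lower at both later times in the authors' deposited tables. Trim46, which organises microtubules at the start of the axon in neurons, was lower at 4 h (-2.27 ± 0.68) and higher at 24 h (1.32 ± 0.30) and 3 d (1.60 ± 0.23) in the authors' deposited tables. Trim46 had 15.6 scaled reads at 4 h, 201 at 24 h and 257 at 3 d, against 78 in the controls, so its 4 h value rests on 7 recovered reads and its level was low throughout, at 0.842 RPKM at 3 d, against 0.279 RPKM in the controls.

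Among 3 tested NHL members, known from neurons and muscle, 0 were higher and 2 lower at 4 h in the authors' deposited table. Of the protein-coding genes tested there 36.9% were higher and 36.3% lower. Trim2, a ligase of neurofilament, had 136 scaled reads at 4 h, 356 at 24 h and 856 at 3 d, against 401 in the controls. It was lower at 4 h (-1.54 ± 0.27), not called at 24 h with DESeq2 (-0.16 ± 0.18) and higher at 3 d (1.08 ± 0.12, adjusted p = 5.88e-20) in the authors' deposited tables. Trim32, whose loss causes a muscular dystrophy in humans, stood at -0.86 ± 0.12 and -0.70 ± 0.10 at 4 h and 24 h, called lower, and was not called at 3 d in the authors' deposited tables. Trim3 was not called at 4 h with DESeq2 (-0.12 ± 0.08), and it stood at -0.20 ± 0.07 at 24 h and 0.18 ± 0.06 at 3 d in the authors' deposited tables, called but small, and edgeR called it lower at 4 h and not at 3 d.

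Of 7 tested members with other tails, 2 were higher and 3 lower at 4 h with DESeq2, and 1 and 6 with edgeR, by the authors' deposited table. Of 13611 protein-coding genes tested there, DESeq2 called 36.9% higher and 36.3% lower, and edgeR called 2518 higher and 9328 lower. Trim8, which affects signalling from the tumour necrosis factor receptor and Toll-like receptors, had 2268 scaled reads at 4 h, 9127 at 24 h and 8724 at 3 d, against 7042 in the controls. It was 3.11-fold lower at 4 h (log2 -1.64 ± 0.07, DESeq2 adjusted p = 9.46e-111) and called higher at 24 h (0.37 ± 0.05) and 3 d (0.29 ± 0.05) in the authors' deposited tables. By edgeR it stood at -0.04 at 24 h in the authors' deposited table, not called. Trim37, a ligase of peroxisomal import, stood at -1.55, -0.44 and 0.17 in the authors' deposited tables, called lower at 4 h and 24 h and higher at 3 d. Trim45 was lower at 4 h (-1.71 ± 0.30) and not called later with DESeq2 in the authors' deposited tables, while edgeR called it lower at 24 h. Of SPRY members, Trim41, Trim62 and Trim11 were lower at 4 h, at -0.94, -1.41 and -0.40 in the authors' deposited table, and 0 of these 3 were called at 3 d by DESeq2. By edgeR Trim41 and Trim62 were called lower at 3 d in the authors' deposited table, at -0.17 and -0.18. Trim27 was -0.56 ± 0.09 at 4 h and stood at 0.17 with DESeq2 and -0.24 with edgeR at 24 h, both called, in the authors' deposited tables.

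Side by side over the 3 times, which share the same controls and were not tested against each other, 15 members were called higher each time in the authors' deposited tables and 7 lower each time. The share of all genes called the same way at all 3 times was not counted. These counts therefore describe the members and do not set them apart from other genes. The 15 were Trim12a, Trim12c, Trim13, Trim14, Trim21, Trim25, Trim26, Trim30a, Trim30b, Trim30c, Trim30d, Trim34a, Trim35, Trim44 and Trim56, of which Trim35 and Trim44 turned with edgeR as given above, and Trim44 was not called by edgeR at 3 d. The 7 were Trim16, Trim24, Trim47, Trim59, Trim65, Trim66 and Trim68. At 3 d the baySeq error rate was above 0.05 for Trim24 (0.644), Trim65 (0.712), Trim66 (0.301) and Trim68 (0.667), and of the 15 for Trim44 (0.555). Members called lower at 4 h and higher at 3 d in the authors' deposited tables were Trim2, Trim5, Trim7, Trim8, Trim27, Trim37 and Trim46. With edgeR, Trim27 and Trim37 were not called at 3 d in the authors' deposited table, at 0.01 and 0.04. The baySeq error rate at 3 d was above 0.05 for Trim7, Trim8, Trim27 and Trim37. Trim15, Trim17, Trim23, Trim29, Trim34b and Trim39 were tested and called at no time with DESeq2 in the authors' deposited tables, though edgeR called Trim15, Trim17, Trim23, Trim29 and Trim39 lower at 1 or more times. Trim23, which carries an ARF-type GTPase domain, had 1700 control reads and stood at -0.11, -0.03 and 0.07 with DESeq2 in the authors' deposited tables. With edgeR it stood at -1.05, -0.45 and -0.07 there, called lower at 4 h and 24 h.

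The remaining members were barely read. Trim69 and Trim75 were tested at 4 h and 24 h and not called by DESeq2, with 5 and 1 control reads, whereas edgeR called Trim69 higher at 4 h (2.09, adjusted p = 0.0374) in the authors' deposited table. Trim9, Trim10, Trim31, Trim38, Trim43a and Trim55 were listed without a DESeq2 adjusted p. Of these edgeR called Trim55 higher at 24 h (3.58, adjusted p = 0.0390) in the authors' deposited table. The genes Trim42, Trim43b, Trim58, Trim67 and Trim71 were listed in only some of the authors' deposited tables. Trim42, Trim43b, Trim55, Trim58, Trim67 and Trim71 were listed at 0 in the controls, and none of them had a DESeq2 adjusted p in the authors' deposited tables.

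Beside the members, genes that serve TRIM ligases were read. Of 18 tested ubiquitin-activating and conjugating enzymes, 17 were higher and 1 lower at 4 h, 16 and 0 at 24 h, and 10 and 2 at 3 d in the authors' deposited tables. Over all protein-coding genes tested 36.9% were higher and 36.3% lower at 4 h, 37.7% and 36.0% at 24 h, and 33.7% and 27.7% at 3 d. These shares are by DESeq2. With edgeR the counts of the enzymes were 12 and 4, 11 and 2, and 6 and 6 in the same tables. Of 13611 protein-coding genes tested at 4 h, edgeR called 2518 higher and 9328 lower. At 24 h it called 3115 and 7725 of 13148, and at 3 d 3269 and 5462 of 12624. Highest at 4 h was Ube2e1 (2.86) and lowest Ube2e3 (-0.49) in the authors' deposited table, both members of the same small family of conjugating enzymes. At 24 h Ube2l6 was highest and Ube2l3 lowest of those called (2.72 and 0.34), and at 3 d Ube2e2 and Ube2e3 (0.90 and -0.18), in the authors' deposited tables. With edgeR Ube2l3 stood at -0.08 at 24 h in the authors' deposited table. Ube2l6 stood at 2.78, 2.72 and 0.89 and Uba7 at 2.50, 2.22 and 0.80 in the authors' deposited tables, the conjugating and activating enzymes of the ubiquitin-like protein ISG15. Ube2w and Ube2n, which start and lengthen the ubiquitin chains of TRIM21 in human cells, stood at 1.17 and 1.24 at 4 h and at 0.56 and 0.84 at 24 h in the authors' deposited tables, all called higher by DESeq2. By edgeR they stood at 0.24 and 0.31 at 4 h and at 0.15 and 0.43 at 24 h in those tables. Of these edgeR values, that of Ube2w at 24 h was not called.

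A list of 31 genes of nucleic acid sensing and Toll-like receptor signalling took in sensors, adaptors, kinases and transcription factors and the ligase Rnf135. Of these 27 were higher and 4 lower at 4 h, 25 and 3 at 24 h, and 19 and 4 at 3 d in the authors' deposited tables, against the shares of protein-coding genes just given. With edgeR the counts of this list were 22 and 9, 21 and 8, and 18 and 7 in the same tables, beside the edgeR counts of protein-coding genes given above. Ifih1 was highest at 4 h (6.12), and Irf7, a transcription factor of interferon genes, at 24 h (6.19) and 3 d (4.03) in the authors' deposited tables. Lowest were Tab1 at 4 h (-1.70), Irf8 at 24 h (-0.91) and Tab1 at 3 d (-0.34) in the authors' deposited tables. Ikbke, the kinase that works with TRIM6, stood at 2.55, 1.51 and 1.31 in the authors' deposited tables, called higher each time. Relatives of the family under other symbols were mixed, with 4 higher and 2 lower of 8 tested at 4 h, 3 and 3 at 24 h, and 4 and 1 of 7 at 3 d in the authors' deposited tables. These are 75.0%, 75.0% and 71.4% called, beside 73.2%, 73.7% and 61.4% of protein-coding genes, so the first 2 shares are near the background. Pml, which forms nuclear bodies, stood at 3.04, 1.89 and 0.57, and Mefv, which encodes the inflammasome protein pyrin, at 3.42, 3.30 and 3.80 at 4 h, 24 h and 3 d in the authors' deposited tables. The microtubule-binding relatives Mid1 and Mid2 went opposite ways, at 3.82, 2.33 and 0.38 and at -3.23, -2.91 and -0.86, though Mid2 had only 55 control reads, all called in the authors' deposited tables.

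The genes with the pattern most like Trim30c over the 3 comparisons were Ccl3, Gbp3, Ccl4, Abtb2 and Ak4, by Euclidean distance between log2 fold changes among 12574 protein-coding genes tested in all 3 of the authors' deposited tables. Ccl3, a chemokine gene, was nearest at a distance of 0.347, with log2 changes of 6.96, 4.61 and 1.76 in the authors' deposited tables, and Ak4, the last of these 5, stood at 0.940. The 3 values share their controls, so the likeness is a description.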

How the data were processed

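The authors made libraries from polyadenylated RNA with a stranded kit, per the labels' protocols. Named without versions in the submitters' processing notes are TopHat2, HTSeq, bcl2fastq, DESeq, DESeq2 and edgeR, with the build mm10. The sources used here do not state how strand was counted. The authors' deposited tables set each MPLA group against 1 shared control group. Per gene they hold log2 fold changes and p-values from the authors' DESeq2 and edgeR runs, an unscaled log2 ratio, and baySeq scores from 0 to 1 (the likelihood of no change and its error rate). Rank scores in the deposited tables were not used. As deposited, the log2 values put control over MPLA, and the sign was turned here, a direction settled from the table names and from genes that lipid A induces.

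A member was called at a DESeq2 adjusted p under 0.05 in the authors' deposited table, adjusted there over all genes, and NA was kept as not tested. Tables were normalized separately, so times were not tested against each other. Summed reads per group were recovered as continued fractions of the unscaled ratios, joined over the 3 tables. The ratio of the recovered totals to the controls was 0.857, 0.932 and 2.32 at 4 h, 24 h and 3 d, and its negative log2 (0.22, 0.10 and -1.21) stood beside constants of the authors' edgeR columns of 0.22, 0.10 and -1.21. Depth per library is not known. Standard errors are the absolute log2 fold change over the normal quantile of its p-value, which assumes a Wald test. They were at or above the counting error for 24 of 24, 32 of 32 and 39 of 39 members with at least 100 reads in both groups. Intervals for low reads are exact 95% intervals, take the recovered numbers as the true sums and cover counting error only.

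Gene positions, exon lengths and shared 50-base windows come from GENCODE M21 (GRCm38), the annotation at hand, which may not be the authors' release. Members with values in the text were those called with at least a 2-fold change, up to 24 by size, those that turned sign between tools, and the extremes of each group without such a member; further members are named in counts and group accounts. Members, groups and lists were chosen with earlier results of these data known. Work was done in Python 3.11.15 with pandas 2.3.3, numpy 2.4.6, scipy 1.17.1 and matplotlib 3.10.9. Alternatives were the authors' edgeR columns, adjustment over every p-value, the baySeq error rate, an adjusted p under 0.01, a 2-fold minimum, centring on the median gene, and leaving out members listed at 0 or sharing sequence.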

Additional observations from a re-analysis of the deposited data

How the results depend on the processing

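No paired analysis was possible because the authors' deposited tables hold no values per library, and for the same reason no library could be left out and no batch examined. Of the alternatives, a minimum of 2-fold left 18 called members at 24 h (12 higher, 6 lower) and 10 at 3 d (7 higher, 3 lower), against 34 and 32. Lower members numbered 26 at 24 h and 14 at 3 d with the edgeR columns of the authors' deposited tables and 20 and 4 with the baySeq error rate, against 13 and 8 with DESeq2. The edgeR columns reversed the call of Trim35 (-0.46) and Trim44 (-0.73) at 4 h and of Trim27 (-0.24), Trim28 (-0.26) and Trim44 (-0.22) at 24 h in the authors' deposited tables. All other counts over the whole family stayed within 1.5 times under every alternative named in the methods. Depth limits the members with few reads, above all Trim43c, Trim72, Trim46 and Trim66 at 4 h.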
